A study of Bos taurus with 10 samples.

Results

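The genes described here build and hold the contacts between cells, mainly but not only epithelial cells. Among them are claudins and other membrane proteins of tight junctions and their scaffold proteins, and cadherins and catenins of adherens junctions. The cadherins and plaque proteins of desmosomes, connexins, polarity proteins and a few transcription factors of epithelial identity are also included. A gene belonged to the set if it stood on a list of 51 such genes, and it was measured by every probe set whose only gene symbol in the platform annotation was that gene. Probe sets were found for 38 of the 51 genes, 38 of the 9155 genes that carried a probe set of their own. They had 59 probe sets of the 24016 on the array besides its controls. No probe set was named here for OCLN, MARVELD2, CLDN8, CDH18, CTNND1, DSG2, DSG3, DSP, PPL, EVPL, PARD3, CRB3 or GRHL2, and these 13 genes were not analysed.

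In the lactating udder the milk-producing luminal cells are sealed to each other near their apical side by tight junctions, in which claudin strands close the gap between cells, and this seal keeps milk components and blood plasma apart. Below it, cadherins tie neighbouring cells together and are anchored to actin by catenins, while desmosomes anchor to keratin filaments through plakoglobin, plakophilins and plakins. Tight junctions of the mammary gland are known to loosen when milk stasis or mastitis sets in.

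Mammary tissue of the neighboring group came from 5 primiparous German Holstein Frisian cows in mid lactation, 24 h after another gland of the udder had been given 500 CFU of the mastitis isolate Escherichia coli 1303 (in 2 ml of saline), so the sampled glands had not received bacteria. Healthy tissue came from 5 cows of the same kind that were not inoculated. In all animals oestrus had been synchronised with cloprostenol and oxytocin had been given to empty the gland. Each cow gave 1 array. Neighboring 1, 2, 3 and 5 were pools of a saline-treated and an untreated gland and neighboring 4 was an untreated gland alone, while healthy 1, 2 and 4 were pools of a pair of glands and healthy 3 and 5 single glands, so all neighboring arrays but neighboring 4 held some saline-treated tissue and no healthy array did.

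Expression is given as log2 RMA signal, a normalised brightness of a probe set, so a difference of 1 is a 2-fold change. Signals of different probe sets are not set against each other, since probes differ in how well they bind. Following the methods of the original work, neighboring 5 and healthy 3 were outside the fit, which left 4 arrays per group. That work treated neighboring 5 as a biological outlier and healthy 3 as a technical one. Its clustering had put neighboring 5 with the controls, so its exclusion was not blind to the group difference. The values of neighboring 5 and healthy 3 are given beside each of the genes of the set that changed. The dimmest 40% of probe sets, by mean signal, were left out, and a change was called where the p adjusted over the remaining 14409 probe sets was under 0.05. Array medians lay between 6.25 and 6.27, and pairs of arrays correlated at 0.971 to 0.992 across probe sets. The mean signal of the 18 hybridization control probe sets, spiked-in RNA that does not come from the tissue, was 10.20 to 10.43 on neighboring 1 to 4 and 10.42 to 10.84 on healthy 1, 2, 4 and 5, lower by 0.37 (exact two-sided permutation test, p = 0.0571; the smallest p possible with 4 against 4 arrays is 0.0286). It was 10.65 on neighboring 5 and 10.64 on healthy 3.

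Each gene was represented by its tested probe set with the highest mean signal. Of the 38 genes, 27 had a probe set above the filter, and 10 of these 27 changed (37.0%), 6 higher and 4 lower in neighboring glands. Over all 7055 genes tested on the array, 31.6% changed (20.2% of all genes were higher and 11.5% lower), so the share of junction genes that changed was near that of all genes. By probe set, 14 of the 37 tested ones of these genes changed, 8 higher and 6 lower, where 29.7% of all 14409 probe sets did (17.7% higher and 12% lower). The median change of the 27 genes was 0.11, against 0.06 over all genes. The set did not move one way. The claudins CLDN3, CLDN7 and CLDN12, the adhesion molecule EPCAM and the plakophilins PKP2 and PKP3 were higher, by 0.71 to 0.86 on the log2 scale. The cadherin CDH11, the tight junction proteins JAM2 and CGN and the transcription factor OVOL1 were lower. OVOL1 passed the filter only through its signal on arrays other than neighboring 1 to 4. In bulk tissue, fewer cells of a type and less RNA per cell cannot be told apart.

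**Figure D1:**
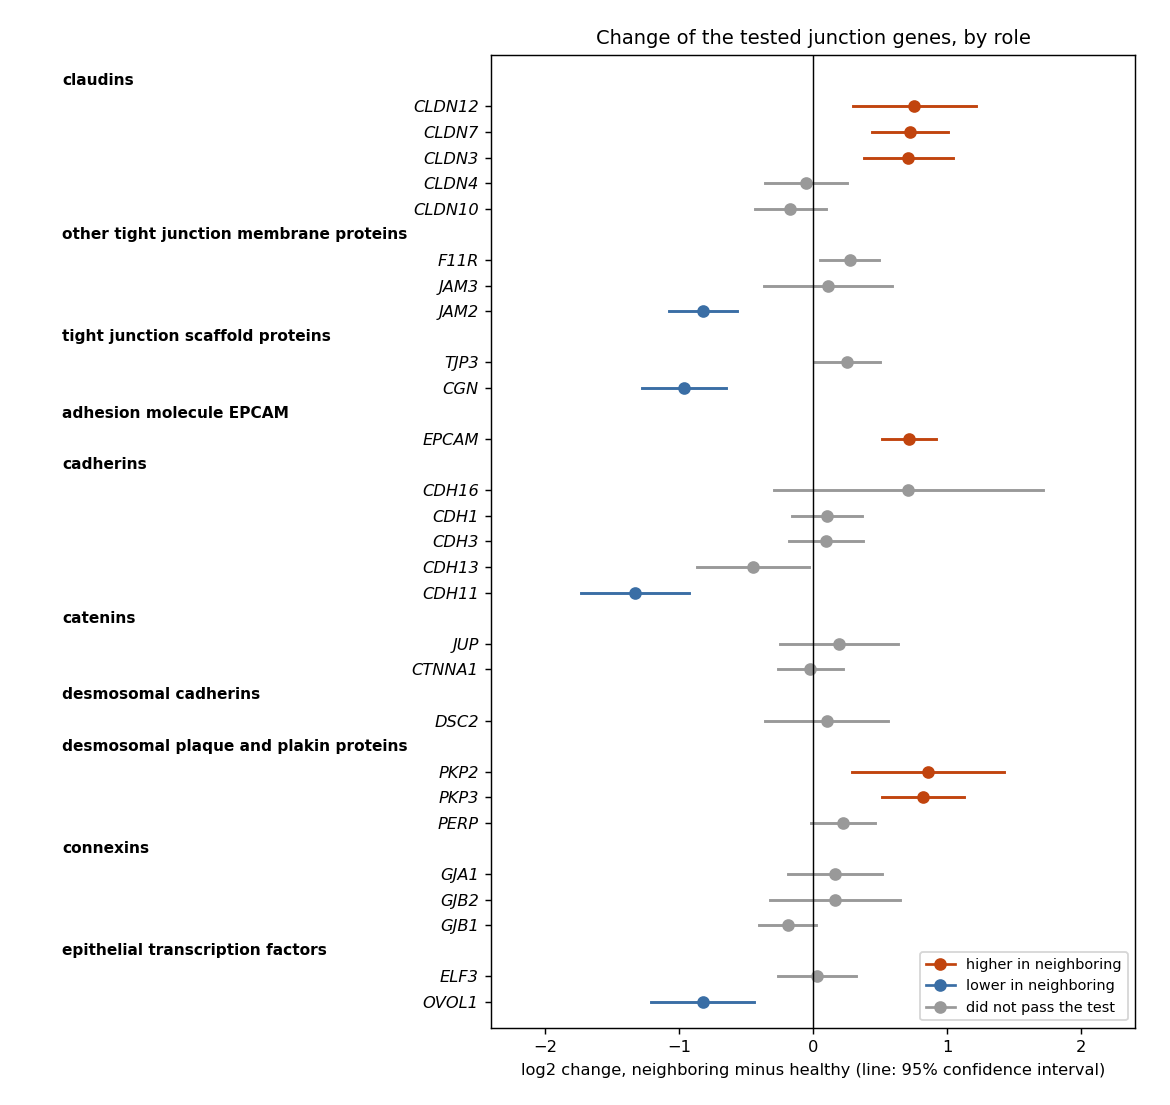
Difference in log2 signal, neighboring minus healthy, for each of the 27 junction genes tested, grouped by role; points are the differences over 4 arrays per group and lines their 95% confidence intervals. The 6 genes called higher lie between 0.71 and 0.86, the 4 called lower between -1.33 and -0.82, and the other 17 between -0.45 and 0.71.

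Claudins are the strand-forming membrane proteins that decide how tight a tight junction is and which ions pass it. Of the 5 claudins of the set above the filter, 3 were higher in neighboring glands and none was lower. Over all genes, 20.2% were higher and 11.5% lower. CLDN15, a claudin outside the set, was lower, as given further below. CLDN3, a sealing claudin of many epithelia, had signals of 10.75, 10.56, 11.22 and 11.09 in neighboring 1 to 4, against 10.36, 10.19, 10.22 and 10.01 in healthy 1, 2, 4 and 5. The groups did not overlap, and CLDN3 was 1.64-fold higher (log2 change 0.71 ± 0.15 SE, adjusted p = 0.00658). Neighboring 5, at 10.04, lay among the healthy arrays, and healthy 3 was the lowest of all at 9.91. With all 10 arrays the change was 0.59 and no longer passed (adjusted p = 0.0643).

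CLDN7, which binds EPCAM in the lateral membrane of epithelial cells, had even signals on the neighboring arrays of the fit (SD 0.05, n = 4). It stood at 10.65, 10.67, 10.54 and 10.62 in neighboring 1 to 4, against 9.52, 10.12, 9.99 and 9.96 in healthy 1, 2, 4 and 5. Every neighboring array was above every healthy one, also when neighboring 5 (10.25) and healthy 3 (9.94) were counted. The change was 0.72 ± 0.13 (SE), adjusted p = 0.003, and it passed with all 10 arrays (0.64, adjusted p = 0.0227).

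CLDN12, a claudin found in several epithelia, had 8.02, 7.79, 8.05 and 7.78 in neighboring 1 to 4 and 7.47, 6.49, 7.55 and 7.12 in healthy 1, 2, 4 and 5. The healthy arrays varied more among themselves than the neighboring arrays did (SD 0.48, against 0.15 in neighboring glands, n = 4 each), and the groups did not overlap. CLDN12 was 1.69-fold higher (0.75 ± 0.21 SE, adjusted p = 0.0214). Neighboring 5 (7.30) lay within the healthy range, as healthy 3 (6.93) did, and the change narrowly missed the threshold with all 10 arrays (0.68, adjusted p = 0.0507) and missed it when neighboring 3 was left out.

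CLDN4, a sealing claudin that lies next to CLDN3 on the cattle chromosome, did not pass, with a mean of 7.26 ± 0.15 in neighboring and 7.32 ± 0.26 in healthy glands (SD, n = 4 each). Its change of -0.05 had a 95% confidence interval of -0.36 to 0.26, which does not reach the change measured for CLDN3. The change of CLDN3 exceeded that of CLDN4 by 0.76, a difference that could not be told from the spread between arrays (exact two-sided permutation test, p = 0.0571, adjusted over 2 pairs 0.114). The pair was chosen after the values were seen. CLDN10, which forms ion-selective channels, did not pass either (-0.17 ± 0.12 SE, adjusted p = 0.295).

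The barrier claudin CLDN1, the channel claudin CLDN2 and CLDN16, best known from the kidney, were dim on this array and stood below the filter. The brighter probe set of CLDN1 had 5.13, 5.30, 5.54, 4.99 and 5.49 in neighboring 1 to 5, against 5.95, 5.90, 6.18, 6.35 and 5.70 in healthy 1 to 5. Every neighboring array was below every healthy one, the direction opposite to that of CLDN3, CLDN7 and CLDN12. In a fit without the filter, in which 20.3% of all probe sets passed, its change was -0.73 (adjusted p = 0.009); the dimmer probe set also lay lower on every neighboring array, but did not pass (-0.27, adjusted p = 0.0763). One of the CLDN2 probe sets passed in that fit (-0.31, adjusted p = 0.0466), and neither of CLDN16 did.

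EPCAM, a homophilic adhesion molecule of the lateral membrane of simple epithelia, had the smallest adjusted p of the set. Its signals were 10.86, 10.64, 10.73 and 10.80 in neighboring 1 to 4, against 10.10, 10.04, 10.06 and 9.97 in healthy 1, 2, 4 and 5. The gap between the groups was wider than the range within either, and EPCAM was 1.64-fold higher (0.72 ± 0.09 SE, adjusted p = 0.00058). Neighboring 5 stood between the groups at 10.22, above each healthy array, while healthy 3 had 10.05. The change held with all 10 arrays (0.61, adjusted p = 0.0223).

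**Figure D2:**
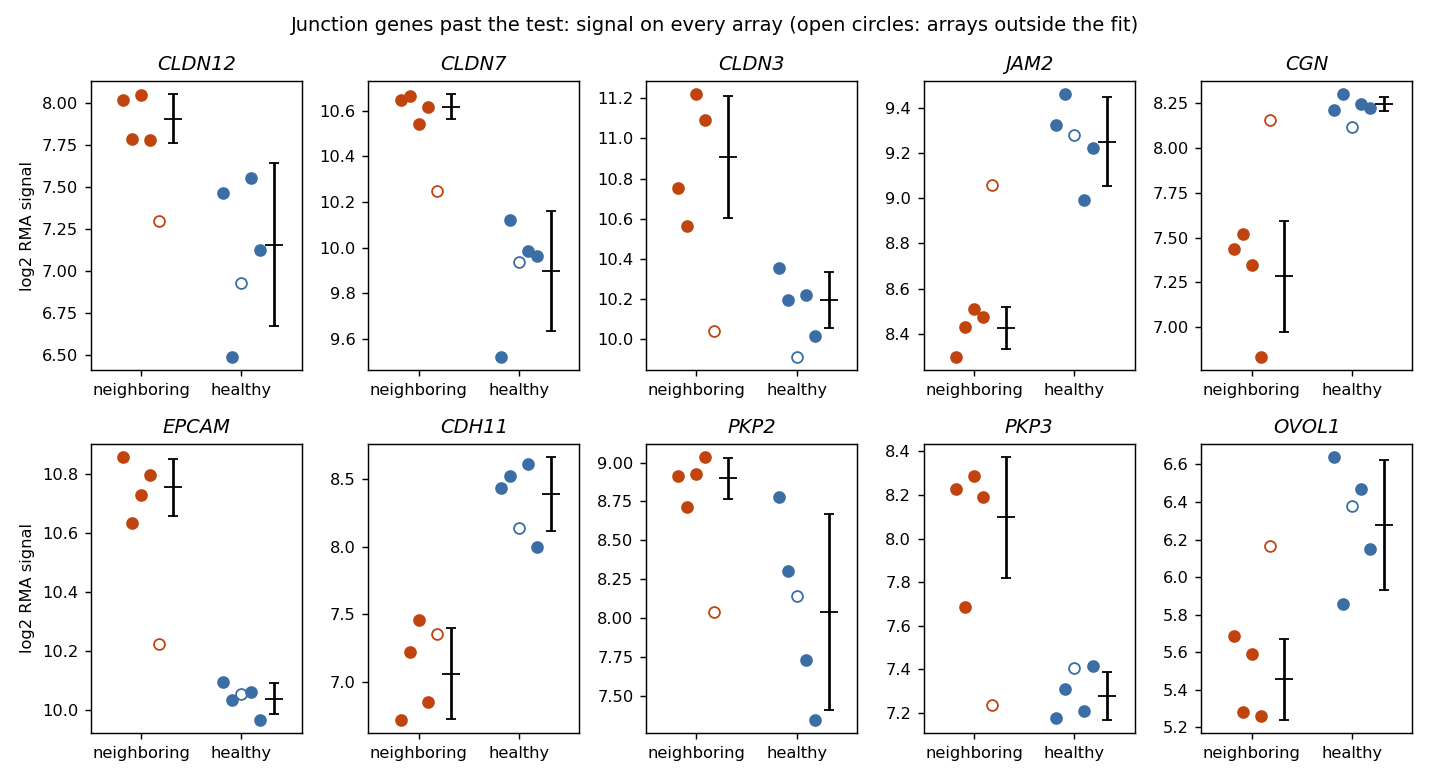
Log2 RMA signal of the 10 junction genes that changed, on every array (points; neighboring left, healthy right), with the mean and SD of the 4 arrays in the fit as black bars and open circles for neighboring 5 and healthy 3, which were outside the fit. The filled points of the groups are separate for every gene but PKP2, and the open neighboring point lies within the healthy range for 6 of the 10 genes.

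The luminal epithelial markers that were measured beside these genes, keratins and milk proteins, had a mean signal of 12.55 ± 0.15 in neighboring and 12.26 ± 0.14 in healthy glands (SD, n = 4 each), the same direction as the claudins and EPCAM. On the arrays in the fit, the only overlap was neighboring 1 (12.42) below healthy 2 (12.44). Outside the fit, neighboring 5 (12.28) lay within the healthy range, and healthy 3 (12.46) lay above neighboring 1. Of the 8 markers 1 changed, KRT19, a keratin of luminal cells (1.10 ± 0.23 SE, adjusted p = 0.00602), where 20.2% of all genes were higher. The median change of the 8 markers was 0.12, so the list mean owes much to KRT19. With all 10 arrays none of the 8 markers passed. The part of luminal cell content in the claudin and EPCAM values was not tested.

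Of the other membrane proteins of tight junctions, the junctional adhesion molecules, 1 of 3 changed, and it was lower. Over all genes 31.6% changed, and 3 genes are too few to compare with that share. JAM2, which in human and mouse is found mostly on endothelial cells of vessels, had 8.30, 8.43, 8.51 and 8.47 in neighboring 1 to 4, against 9.32, 9.46, 8.99 and 9.22 in healthy 1, 2, 4 and 5. The groups did not overlap, and JAM2 fell to 56.6% of its healthy level (log2 change -0.82 ± 0.11 SE, adjusted p = 0.000957). Its other probe set gave -0.70 ± 0.11 (SE, adjusted p = 0.00198), and both passed with all 10 arrays (adjusted p = 0.0234 and 0.0322). Neighboring 5 (9.06) stood apart from the other neighboring arrays and within the healthy range, where healthy 3 (9.28) also lay.

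Of the endothelial markers 5 were tested and none passed, with a median change of -0.16. Their mean signal was 7.87 to 8.13 on neighboring 1 to 4, against 7.88 to 8.22 on healthy 1, 2, 4 and 5, and the part of endothelial cell content in the JAM2 values was not tested. CDH5, the cadherin of endothelial cells, changed by -0.16 and PECAM1, their adhesion molecule, by 0.49, neither past the test. F11R, known as JAM-A and found in epithelial tight junctions, had 9.91, 9.76, 9.85 and 9.59 in neighboring 1 to 4, against 9.51, 9.59, 9.43 and 9.49 in healthy 1, 2, 4 and 5. It missed the threshold (0.27 ± 0.10 SE, adjusted p = 0.0594), and its other probe set changed by 0.09. JAM3 did not pass on either probe set (0.11 and -0.05), and healthy 2 was far above the other healthy arrays, at 7.49 against 6.44 to 6.68.

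Scaffold proteins tie the strands to the actin cytoskeleton on the cytoplasmic side. CGN, cingulin, which links the zonula occludens proteins to actin and myosin, had 7.44, 7.52, 7.35 and 6.83 in neighboring 1 to 4, against 8.21, 8.30, 8.24 and 8.23 in healthy 1, 2, 4 and 5. The healthy arrays formed a tight cluster, every neighboring array in the fit was well below it, and CGN fell to 51.4% of its healthy level (-0.96 ± 0.14 SE, adjusted p = 0.00122). Neighboring 5 did not share this: at 8.16 it stood just below the healthy cluster and next to healthy 3 (8.12). With all 10 arrays the change was -0.76 (adjusted p = 0.0314).

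TJP3, or ZO-3, a zonula occludens protein of epithelia, was measured by 3 probe sets that did not agree in direction. The brightest gave 8.18, 7.88, 8.27 and 7.92 in neighboring 1 to 4, against 7.75, 7.81, 7.79 and 7.89 in healthy 1, 2, 4 and 5 (0.26 ± 0.11 SE, adjusted p = 0.103), and the others changed by -0.36 and 0.22. None passed. Both probe sets of TJP1, or ZO-1, the best known scaffold protein, had mean signals under 3 on the log2 scale and were below the filter.

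Cadherins hold neighbouring cells together through like molecules on each side. Of 5 tested, 1 changed, where 31.6% of all genes did, and 5 genes are too few to compare with that share. It was CDH11, which had the largest change among the 27 genes. CDH11, a cadherin of mesenchymal cells such as fibroblasts, had 6.72, 7.22, 7.46 and 6.85 in neighboring 1 to 4, against 8.44, 8.52, 8.61 and 7.99 in healthy 1, 2, 4 and 5. All neighboring arrays were below all healthy arrays, and the gene fell to 39.8% of its healthy level (-1.33 ± 0.18 SE, adjusted p = 0.000875). Here neighboring 5 (7.36) lay among the other neighboring arrays, and healthy 3 had 8.14. On the other probe set neighboring 5 (6.39) lay between the groups. The other probe set gave -1.03 ± 0.18 (SE, adjusted p = 0.00261), both passed with all 10 arrays (adjusted p = 0.0087 and 0.0211), and CDH11 was the only one of the 27 genes to pass an adjusted p of 0.01 with a change of over 2-fold, which 2.76% of all probe sets did.

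Some markers of fibroblasts and most of those of myoepithelial cells were lower, as CDH11 was, where 11.5% of all genes were lower. Of 9 fibroblast markers, 5 did not pass, 3 were lower, the matrix genes LUM (-1.72), COL3A1 (-0.95) and COL1A1 (-0.70), and 1 was higher, the growth factor receptor PDGFRA (0.50). The mean signal of the list was 7.93 to 8.60 on neighboring 1 to 4 and 8.70 to 9.08 on healthy 1, 2, 4 and 5. Of 8 myoepithelial markers, 5 were lower and none was higher, among them the calponin CNN1 (-1.35) and the oxytocin receptor OXTR (-1.24), with a mean signal of 8.80 to 9.16 in neighboring and 9.45 to 9.99 in healthy glands. Of the leukocyte markers 3 of 9 were lower, and of the adipocyte markers 1 of 2. The leukocyte list overlapped, with means of 6.96 to 7.21 on neighboring 1 to 4 and 7.03 to 7.41 on the healthy arrays in the fit. With all 10 arrays no leukocyte or adipocyte marker passed. In that fit 4 fibroblast markers were lower and 1 higher, and 4 myoepithelial markers were lower. The fibroblast and myoepithelial lists did not overlap between the groups, and their part in the fall of CDH11 was not tested.

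**Figure D3:**
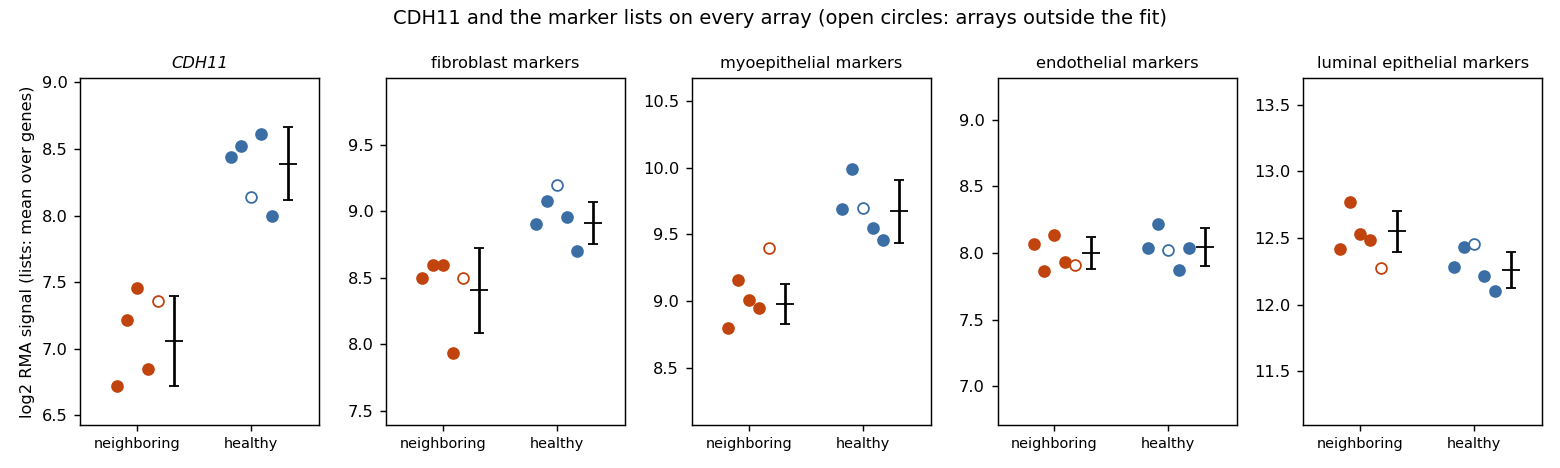
Log2 RMA signal of CDH11 and mean log2 signal of 4 lists of cell type markers on every array (points; neighboring left, healthy right; open circles are outside the fit; black bars are the mean and SD of 4 arrays). CDH11, the fibroblast list and the myoepithelial list are lower on neighboring 1 to 4 than on every healthy array in the fit. The endothelial list overlaps. On the arrays in the fit, the luminal list is higher in neighboring glands but for neighboring 1 (12.42) against healthy 2 (12.44). Neighboring 5 (12.28) lies within the healthy range of the luminal list.

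CDH1, E-cadherin, the main cadherin of epithelial cells, was 9.11, 9.30, 8.99 and 8.92 in neighboring 1 to 4, against 8.76, 8.98, 9.15 and 8.99 in healthy 1, 2, 4 and 5. The arrays mixed, and the change was 0.11 ± 0.12 (SE), adjusted p = 0.511. Its dimmer probe set passed by a small margin (0.40 ± 0.13 SE, adjusted p = 0.0466), with overlapping groups, and did not pass with all 10 arrays (adjusted p = 0.226) or without the filter (adjusted p = 0.0574). CDH3, P-cadherin, which in human and mouse mammary gland marks myoepithelial cells and lies next to CDH1 on the chromosome, averaged 6.95 ± 0.25 in neighboring and 6.86 ± 0.03 in healthy glands (SD, n = 4 each) and did not pass. Its change did not differ measurably from that of CDH1 (difference 0.01, exact two-sided permutation test, p = 0.971).

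CDH13, a cadherin held by a lipid anchor and without a cytoplasmic tail, changed by -0.45 ± 0.19 (SE, adjusted p = 0.0953). CDH16, best known from the kidney, varied most between animals. It had 9.30, 7.29, 6.82 and 7.33 in neighboring 1 to 4, against 7.01, 7.02, 6.43 and 7.45 in healthy 1, 2, 4 and 5, while healthy 3, outside the fit, had 8.54. Neighboring 1 and healthy 3, one array of each group, were the high ones on both probe sets, and the change of 0.71 ± 0.45 (SE) did not pass (adjusted p = 0.254). Without neighboring 1 the neighboring mean was 7.14 ± 0.29 (SD, n = 3), against a healthy mean of 6.98 ± 0.42 (SD, n = 4). CDH2 (N-cadherin) and CDH17 were below the filter.

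Catenins couple cadherins to the cytoskeleton, and neither of the pair tested passed. CTNNA1, alpha-catenin, which binds actin, averaged 9.93 ± 0.20 in neighboring and 9.95 ± 0.03 in healthy glands (SD, n = 4 each), a change of -0.02 with a 95% confidence interval of -0.26 to 0.22. JUP, plakoglobin, which serves adherens junctions as well as desmosomes, changed by 0.20 ± 0.20 (SE, adjusted p = 0.473).

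Desmosomal cadherins bridge the cells and plaque proteins carry the link to keratin. DSC2, desmocollin 2, was the only desmosomal cadherin above the filter and averaged 6.64 ± 0.35 in neighboring and 6.54 ± 0.36 in healthy glands (SD, n = 4 each), which did not pass. DSC1, DSC3 and DSG1 were below the filter on all their probe sets, with mean signals under 4 on the log2 scale in either group. Of 3 plaque and plakin genes tested, 2 were higher, where 20.2% of all genes were, and 3 genes are too few to compare with that share.

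PKP3, plakophilin 3, which binds desmosomal cadherins and plakins in simple and stratified epithelia, had 8.23, 7.69, 8.29 and 8.19 in neighboring 1 to 4, against 7.17, 7.31, 7.21 and 7.42 in healthy 1, 2, 4 and 5. The groups did not overlap, and PKP3 was 1.77-fold higher (0.82 ± 0.14 SE, adjusted p = 0.0023). Neighboring 5 (7.23) lay within the healthy range, and healthy 3 had 7.40. With all 10 arrays the change was 0.62 and passed narrowly (adjusted p = 0.0481).

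PKP2, plakophilin 2, the plakophilin of simple epithelia and heart, had 8.91, 8.72, 8.92 and 9.04 in neighboring 1 to 4, against 8.78, 8.31, 7.73 and 7.35 in healthy 1, 2, 4 and 5. The neighboring arrays were close together and the healthy ones spread widely, and healthy 1 was above neighboring 2. Neighboring 5 (8.04) and healthy 3 (8.14) both lay within the healthy range. The change of 0.86 ± 0.26 (SE) passed (adjusted p = 0.0295), but not with all 10 arrays (0.66, adjusted p = 0.1), nor when neighboring 1, 3 or 4 or healthy 4 or 5 was left out. Its other probe set separated the groups, with 7.78, 7.35, 7.57 and 7.47 in neighboring 1 to 4 and 7.17, 6.94, 6.56 and 6.32 in healthy 1, 2, 4 and 5 (0.80 ± 0.18 SE, adjusted p = 0.00866). PERP, a membrane protein that desmosomes need, changed by 0.22 ± 0.11 (SE, adjusted p = 0.144), and PKP1, the plakophilin of stratified epithelia, was below the filter.

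Connexins form the channels of gap junctions, through which neighbouring cells exchange small molecules. None of 3 passed. GJA1, the connexin that in the mammary gland of mouse and human joins myoepithelial cells, averaged 9.12 ± 0.20 in neighboring and 8.96 ± 0.30 in healthy glands (SD, n = 4 each). GJB2, in mouse a connexin of the secretory epithelium, changed by 0.16 ± 0.22 (SE) and GJB1, another such connexin, by -0.19 ± 0.09 (SE, adjusted p = 0.15). The only polarity gene with a probe set, PARD6A, was below the filter on both; in the fit without it, the dimmer one passed (0.50, adjusted p = 0.0276) and the brighter one did not (0.18, adjusted p = 0.289).

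OVOL1, a zinc finger transcription factor that in mouse and human keeps cells epithelial, was lower in neighboring glands. It had 5.69, 5.28, 5.59 and 5.26 in neighboring 1 to 4, against 6.64, 5.86, 6.47 and 6.15 in healthy 1, 2, 4 and 5. The groups did not overlap, and OVOL1 fell to 56.6% of its healthy level (-0.82 ± 0.17 SE, adjusted p = 0.00672). The probe set was among the dim ones, with a mean of 5.95 over 10 arrays. Neighboring 1 to 4 all lay under the filter cutoff of 5.71, so it was tested only through its signal on the other arrays. The size of the fall is therefore uncertain. Neighboring 5 (6.17) and healthy 3 (6.38) both lay within the healthy range, and with all 10 arrays the change was -0.70 (adjusted p = 0.0377). ELF3, an ETS factor of epithelia, averaged 7.19 ± 0.23 in neighboring and 7.16 ± 0.15 in healthy glands (SD, n = 4 each) and did not pass.

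**Figure D4:**
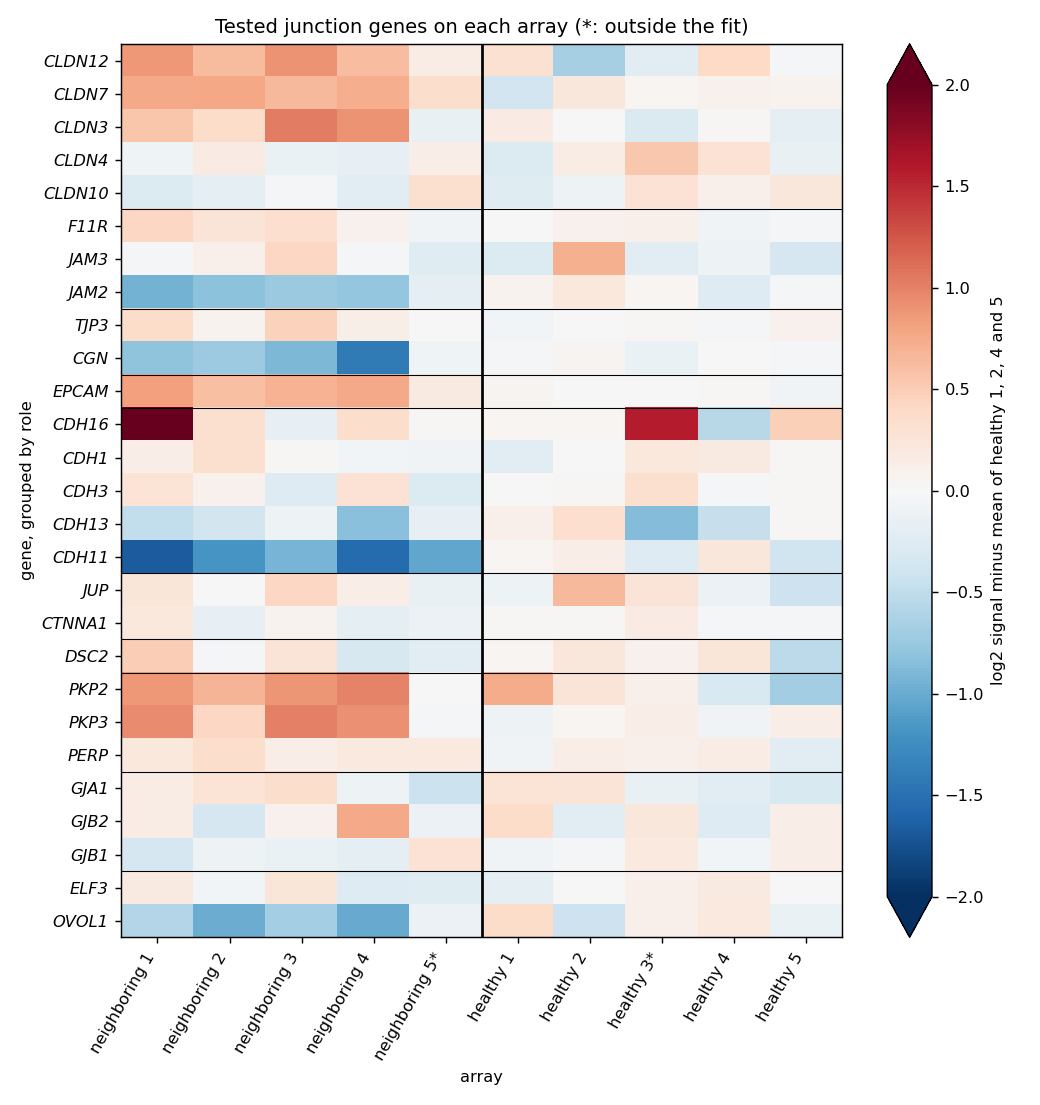
Log2 signal of each of the 27 tested junction genes (rows, grouped by role) on each array (columns, neighboring left of the black line, healthy right of it) minus the mean of healthy 1, 2, 4 and 5; red is higher, blue lower, colours end at -2 and 2, and asterisks mark the arrays outside the fit. The column of neighboring 5 is pale for most genes that changed, with CDH11, shown by its brighter probe set, as the plain exception. CDH16 is dark red on neighboring 1 and healthy 3 alone.

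Neighboring 5 was of the same group as the other neighboring arrays by its label, but for most of the genes that changed it was not like them. For 6 of the 10 genes it lay within the range of the healthy arrays in the fit (CLDN3, CLDN12, JAM2, PKP2, PKP3 and OVOL1). For CLDN7, CGN and EPCAM it lay between the groups. For CDH11 it lay among the neighboring arrays on the brighter probe set, but between the groups on the other (6.39). Measured from the healthy mean, it covered 77.8% of the fitted change of CDH11 on the brighter probe set and 45.0% on the other. It covered 48.5% of the change of CLDN7 and 25.6% of that of EPCAM, but 9.41% of that of CGN. All 10 genes kept their direction with all 10 arrays, though they had been picked on 8 of the same arrays. In that fit 7 of the 27 genes passed, all of them among the 10. By probe set, 9 of the 37 tested ones of junction genes passed, against 12.5% of all probe sets. Groups that did not overlap were found for 14 of 37 tested probe sets of junction genes on 8 arrays, where 31.7% of all probe sets were separate. On all 10 arrays 4 of 37 were separate, those of CLDN7, EPCAM and CDH11, against 7.28% of all probe sets.

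The hybridization control signal averaged 0.37 lower on the neighboring arrays of the fit, with overlapping groups (exact two-sided permutation test, p = 0.0571). It was entered as a covariate in a further fit. All 10 genes kept their direction, and CDH11 alone still passed (-1.66 ± 0.30 SE, adjusted p = 0.031). EPCAM changed by 0.68 (adjusted p = 0.0671) and CGN by -1.13 (adjusted p = 0.055) in that fit, in which the standard errors were larger and 251 of 14409 probe sets on the array passed.

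**Figure D5:**
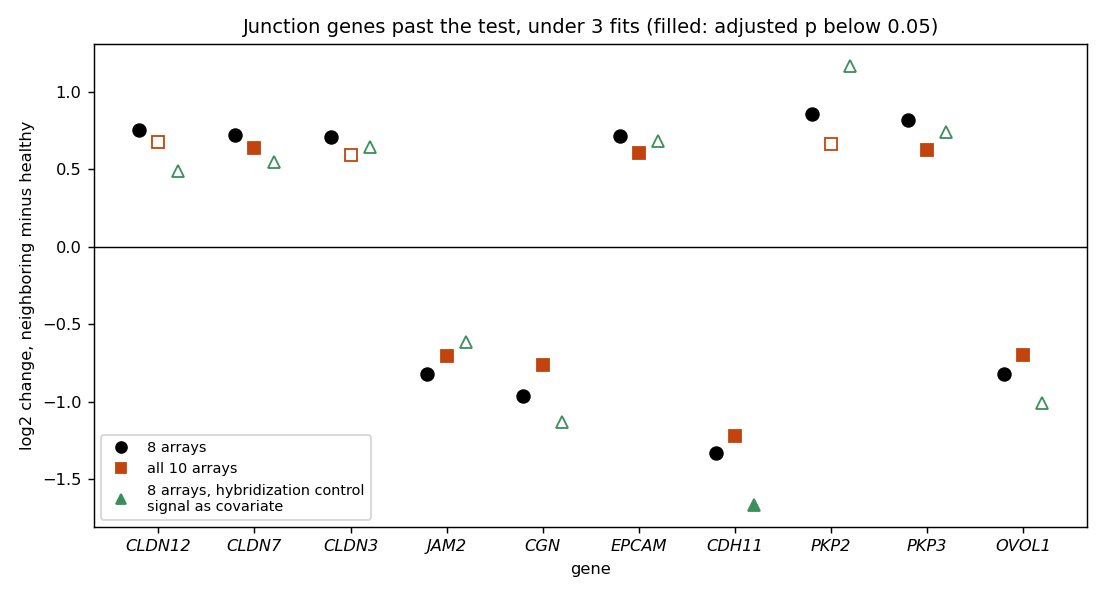
Log2 change, neighboring minus healthy, of the 10 junction genes that changed (horizontal axis) in 3 fits: 8 arrays (circles), all 10 arrays (squares) and 8 arrays with the hybridization control signal as a covariate (triangles); filled symbols have an adjusted p below 0.05. The sign is the same in every fit for each gene, while CLDN3, CLDN12 and PKP2 are open with all 10 arrays and only CDH11 is filled in all 3.

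Of 24 further junction genes tested, 5 were higher and 2 lower, against 20.2% higher and 11.5% lower over all genes, so the counts were near those of all genes. YBX3, a Y-box factor that binds ZO-1 at tight junctions, had 12.53, 12.22, 12.52 and 12.28 in neighboring 1 to 4, against 11.40, 11.56, 10.94 and 11.15 in healthy 1, 2, 4 and 5 (1.13 ± 0.14 SE, adjusted p = 0.000606). LSR, angulin-1, which recruits tricellulin to the corners where cells meet, was 7.46, 7.24, 7.56 and 7.34 in neighboring 1 to 4 and 6.70, 6.69, 6.49 and 6.70 in healthy 1, 2, 4 and 5 (0.76 ± 0.10 SE, adjusted p = 0.000819). In both the groups were separate, and neighboring 5 lay just above the healthy range for YBX3 (11.67) and within it for LSR (6.62).

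The connexin GJB5 was higher by 0.56 ± 0.10 (SE, adjusted p = 0.00294), and so were the polarity genes PALS1 (0.51, adjusted p = 0.00667) and PRKCZ (0.43, adjusted p = 0.022), an atypical protein kinase C. CLDN15, a channel-forming claudin, was lower (-0.69 ± 0.11 SE, adjusted p = 0.00179), as was VCL, vinculin, which links adhesion sites to actin (-0.39, adjusted p = 0.0327). Beta-catenin, CTNNB1, changed by -0.05 and did not pass. A further list held transcription and splicing factors of epithelial or mesenchymal identity, 8 of them tested. Of these, 1 was higher, 1 was lower and 6 did not pass, with a median change of -0.01. Over all genes, 20.2% were higher and 11.5% lower, so the list as a whole did not move one way. ESRP1, a splicing factor of epithelial cells, was higher (0.66 ± 0.10 SE, adjusted p = 0.00125). ZEB1, a mesenchymal factor which represses CDH1, was lower (-0.44 ± 0.11 SE, adjusted p = 0.0172), while SNAI1 changed by -0.11. EHF, an ETS factor of epithelia from the same list, was below the filter, with 4.61, 4.59, 4.53, 4.69 and 4.80 in neighboring 1 to 5, against 6.21, 5.11, 5.54, 5.63 and 6.02 in healthy 1 to 5. Every neighboring array was below every healthy one, and in the fit without the filter EHF changed by -1.14 (adjusted p = 0.0033).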

How the data were processed

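RNA was extracted with TRIzol, amplified and labelled with MessageAmp II, and measured on the Affymetrix Bovine Genome Array, per the labels. Deposited by the authors were log2 signals from RMA (background correction, quantile normalization, summary over probes), with no version stated. Quantile normalization hides a shift shared by most transcripts, and RMA compresses small signals. Groups came from sample titles. Of the probe sets besides the 112 array controls, 13292 were annotated with 1 symbol, 86 with several and 10638 with none here. Probe-level data for the study's present-call filter were not used here. Instead, probe sets averaging under 5.71 over 10 arrays (40%) were left out. Differences were tested with limma 3.58.1 in R 4.3.3 (lmFit, eBayes, Benjamini-Hochberg over 14409 probe sets) and single values by exact permutation (scipy 1.17.1). Every adjusted p of a gene is limma's. Each array was 1 cow, and the 4 or 5 cows per group limit the precision. The members and gene lists were chosen with earlier results of these data known. Values on all 10 arrays are given for each gene of the set past the test, and further genes were named by their signal within a role. The fit was checked on simulated data. Same-numbered arrays of the groups were not paired (correlations of deviations -0.19 to 0.17).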

Additional observations from a re-analysis of the deposited data

Results flagged for a closer look

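In 56 groups of 5 arrays (27 genes and the hybridization controls, in each group), 5 held an array far from the other 4, where chance gives about 1 in 20. JAM2 was 9.06 on neighboring 5, against 8.30 to 8.51 on the other neighboring arrays. JAM3 was 7.49 on healthy 2, against 6.44 to 6.68 on the other healthy arrays. CDH3 was 7.17 on healthy 3, against 6.82 to 6.88 on the others. CDH16 was 9.30 on neighboring 1, against 6.82 to 7.33. DSC2 was 6.02 on healthy 5, against 6.59 to 6.79 on the other healthy arrays. The 5 flags fell on 5 different arrays.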

How the results depend on the processing

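No gene that changed reversed its direction under the alternatives tried. With all 10 arrays, 9 probe sets of junction genes passed (14 in the fit on 8 arrays) and 1806 probe sets in all (4283 on 8 arrays). With neighboring 5 put back alone, 7 of those probe sets, 5 genes (10 on 8 arrays), 1 other junction gene (7 on 8 arrays) and 1190 probe sets in all passed; CLDN3, CLDN12, PKP2, PKP3 and OVOL1 were lost. With the hybridization control signal as a covariate, 2 probe sets, 1 gene, 1 other junction gene and 251 probe sets in all passed, and the median change of the genes was -0.015. At an adjusted p of 0.01 and over 2-fold, 2 probe sets, 1 gene, 1 other junction gene and 398 probe sets in all passed. The hybridization control signal differed by -0.29 with all 10 arrays (exact permutation p = 0.0397). The cause of these changes was not tested. With the replicate number as a block, which pairs cows that share only a number, 8 genes passed (7 of the 10, and CDH13), 3 other junction genes and 1481 probe sets in all, and the median change was -6.67e-05.

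Leaving out 1 of the 8 arrays gave 8 to 10 genes. F11R passed without neighboring 4, CDH13 without healthy 4 and under cyclic loess, and CLDN1 with no filter; OVOL1 fell below a filter that left out the lowest 60%. Over these 8 fits the difference between CDH1 and CDH3, chosen after the data were seen, ran from -0.077 to 0.13. With 4 arrays per group and 1 probe set for most genes, a change that missed the test is not shown to be absent, and dim genes could not be judged.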
